A study of Homo sapiens with 30 samples.

Results

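The comparison described here is p53 TM against wild type p53 at 24 h, chosen by its columns in the table of raw counts: 3 libraries on each side, 6 of the 30 libraries of the series, paired by replicate number and read over all genes. TM (transcriptional mutagenesis) is the synthesis of mutant transcripts from a damaged but unmutated template. H1299 is a human lung carcinoma line with no p53 of its own, and the cells received their p53 from a transiently transfected vector. The question asked of the data was which effects of p53 on gene expression were lost most, and which least, when p53 was transcribed from a vector with a lesion in its template strand. RNA was taken from cells sorted for GFP, which the same vectors express.

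All groups used were harvested at 24 h and had 3 biological replicates. pGFP cells received a vector with GFP alone, and wild type p53 cells a vector that also expresses the unaltered protein. RW mutant p53 cells received a vector altered at codon 248, which lies in the DNA-binding domain. The p53 O6-meG vector carries *O*6-methylguanine (O6-meG) on the template strand of the same codon, opposite which RNA polymerase can insert the wrong base. The p53 TM cells received this O6-meG vector together with 10 µM O6-bzG, an inhibitor of the repair enzyme AGT, and no other group received that inhibitor. In p53 TM against wild type p53 the lesion and the inhibitor therefore cannot be told apart. p53 and GFP stand under separate TRE-tight promoters, so the results are those of a vector in 1 cell line. A partly lost effect in the sorted population cannot be told apart from a full loss in a part of its cells, just as fewer cells of a kind and less RNA per cell cannot.

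p53 is a transcription factor that binds as a tetramer to paired repeats in or near its target genes. Among its classical targets are the cell cycle inhibitor *CDKN1A*, genes of apoptosis such as *BBC3*, genes of DNA repair such as *XPC* and *DDB2*, and *MDM2*, whose product in turn removes p53. Genes of cell division fall indirectly, through p21, the product of *CDKN1A*, and the complexes that bind E2F and CHR elements in their promoters.

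Levels are given as CPM (read counts scaled by library size after TMM normalization), with values in the order of replicates 1 to 3. Adjusted P values come from the quasi-likelihood test of edgeR, with the replicate number as a block, and were adjusted by the Benjamini-Hochberg method. The 15 libraries at 24 h held 32302699 to 51604990 gene counts each, and 20124 genes had enough counts to be tested. Of the marker genes, *VIM*, *KRT8* and *KRT18* were present, as in the H1299 line. *HBB*, a globin gene that a lung line should lack, was found in all 5 groups, at means of 555 CPM in p53 TM, 798.5 CPM in wild type p53 and 1013 CPM in pGFP, and was lower in p53 TM than with wild type p53 by −0.52 on the log2 scale. Where these reads come from, and their part in the results, was not tested. Of the 7 marker genes tested 5 were lower in p53 TM with the block and none of them held without it, while *NKX2-1*, *COL1A1* and *PECAM1* had means below 1 CPM in both groups. Of the 10 housekeeping genes 3 were lower in p53 TM, none of which held without the block, with log2 fold changes between −0.27 and 0.05 over the list. Over all genes tested 22.1% were lower in p53 TM with the block.

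The sequences that the kept and the reversed effects refer to are shown first. A promoter here is the RefSeq window from 250 bases before to 50 bases after a gene's start (GRCh38.p14), and 12640 of the 20124 genes tested had at least 1 window. A p53 site is the p53 consensus element, both repeats with a spacer of at most 1 base and at most 2 mismatches, none of them at the invariant C and G of a repeat. Among the genes whose rise with wild type p53 was kept almost whole in p53 TM, 6 had such a site in a window, and 5 of these are given below in capitals, with spacer bases in lower case. *ACTA2*, the other one, reads the site of *FAS* from the opposite strand, since both genes start within the same region of chromosome 10.

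LNCTAM34A, chr1:9182144-9182163, plus strand: GAACAAGCCCAGGCAAGCCC
DDB2, chr11:47214979-47214999, plus strand: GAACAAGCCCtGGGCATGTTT
MDM2, chr12:68808923-68808942, plus strand: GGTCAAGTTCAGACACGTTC
AEN, chr15:88621306-88621325, plus strand: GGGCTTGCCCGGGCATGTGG
FAS, chr10:88991309-88991328, plus strand: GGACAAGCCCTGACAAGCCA

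Sites in the windows of raised genes that were lower in p53 TM are given for contrast. *METTL8* encodes a methyltransferase of transfer RNA, *DOCK8* a guanine nucleotide exchange factor, and *ANKRD65* a protein with ankyrin repeats.

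METTL8, chr2:171434169-171434188, minus strand: GGGCTTGCCCGGCCCTGCCT
DOCK8, chr9:214879-214898, plus strand: GCGCTTGGCTGGGCATGTTC
ANKRD65, chr1:1421482-1421501, minus strand: AAGCATGTTCCTGCTTGTCC

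The sites of *LNCTAM34A* and *DDB2* matched the consensus without a mismatch, and the other sites printed had 2 mismatches each. A match describes these letters only and was not measured as binding.

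Wild type p53 raised 1915 genes against pGFP (9.52% of the genes tested, adjusted P below 0.05 and at least 2-fold) and lowered 498 (2.47%). In p53 TM 1588 of the 1915 raised genes were lower than with wild type p53, 2 were higher and 325 were not called. Over all genes tested 22.1% were lower and 16.6% higher in p53 TM, or 4455 and 3334 genes (38.7% in either direction, 4.78% lower and 0.586% higher by at least 2-fold). Of the 498 lowered genes 265 were higher in p53 TM and 233 were not called. By replicate number, 1762 raised genes were below wild type in all 3 pairs (33.0% of all genes were) and 399 lowered genes were above it in all 3 (28.3%). The p53 TM libraries all lay below every wild type library for 1137 raised genes (15.6% of all genes) and above for 271 lowered genes (14.3%). The median log2 ratio of p53 TM to wild type was −0.91 over the raised genes, 0.73 over the lowered genes and −0.02 over all genes. Because the wild type libraries also define the raised and lowered genes, these shares are a description.

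Without the replicate block fewer genes passed: 1893 were lower and 1269 higher in p53 TM, every one of them also called with the block. The raised genes that were lower then numbered 1047 and the lowered genes that were higher 142. Leaving out replicate 2 of all groups gave 2599 lower and 1508 higher genes.

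A definition of the p53 effect that shares no library with this comparison is p53 O6-meG against RW mutant p53. It gave 1555 raised genes (7.73%) and 381 lowered genes (1.89%). Of those raised genes 1276 were lower in p53 TM than with wild type p53 (82.1%), against the 22.1% of all genes. Of those lowered genes 156 were higher in p53 TM (40.9%), against 16.6%. The reduction followed the size of the p53 effect: the median log2 ratio of p53 TM to wild type was −0.40 for the 1671 genes whose effect lay between 0.5 and 1 on the log2 scale. It was −0.72 for an effect of 1 to 2 (994 genes), −1.22 for 2 to 3 (303 genes), −1.61 for 3 to 4 (141 genes) and −1.81 above 4 (169 genes). The median effects of these bins were 0.69, 1.33, 2.39, 3.43 and 5.53. A small rise leaves little to lose, and on the log2 scale the reduction was a smaller part of the larger effects. On the falling side it was 0.57 for an effect of −2 to −1 (433 genes) and 0.81 below −2 (17 genes).

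**Figure D1:**
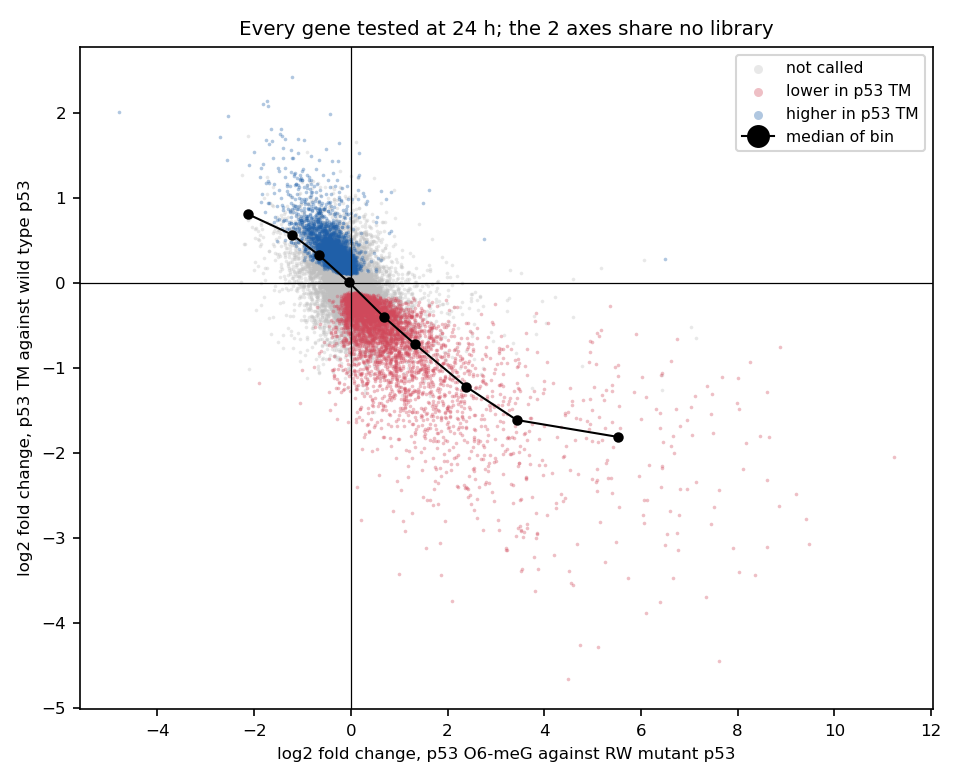
Log2 ratio of p53 TM to wild type p53 (vertical axis) against that of p53 O6-meG against RW mutant p53 (horizontal axis) for the 20124 genes tested, 1 point a gene, coloured by the call in p53 TM against wild type, with medians of bins in black. The medians run from 0.81 for effects below −2, a bin of only 17 genes, and 0.57 for effects of −2 to −1 down to −1.81 for effects above 4 on the log2 scale.

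How much of an effect was left was described by the retained share, the difference of p53 TM from pGFP as a percentage of that of wild type p53 from pGFP, on mean CPM. A share of 100% is the wild type level and 0% the pGFP level. The median over the raised genes was 32.7%, with quartiles of 17.8% and 48.2%, and over the lowered genes 52.2%, with quartiles of 38.7% and 65.2%. By replicate number the median of the raised genes was 41.3%, 25.9% and 26.7%. Replicate 1 stood apart, with the highest share of the 3 in 1258 of the 1915 genes, and the median was 26.4% without replicate 1 of all groups. Without p53 TM replicate 1 alone it was 20.3%, but there the wild type and pGFP means still held replicate 1, which breaks the pairing. With p53 O6-meG, which carries the lesion without the inhibitor, the medians were 78.9% and 90.5%. On the log2 scale the 2 medians of p53 TM were 49.9% and 41.2%, so that the order of raised and lowered genes depends on the scale.

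Many p53 effects were still measurable in p53 TM. Of the raised genes 1204 were still higher in p53 TM than in pGFP, 661 of them by at least 2-fold (3.35% of all genes tested passed that call). Of the lowered genes 185 were still lower than in pGFP, 31 of them by at least 2-fold (0.432%). Because the pGFP libraries also define the raised and lowered genes, these counts are a description. With p53 effects defined by p53 O6-meG against RW mutant p53, without pGFP, 1089 of 1555 raised genes were higher in p53 TM than in pGFP. Of the 381 lowered genes by that definition 120 were lower. Over all 20124 genes tested 2631 were higher and 1993 lower in p53 TM than in pGFP. A share below 10% was found for 268 raised genes and a share above 80% for 94. Raised genes that code for protein had a median of 29.6% (1401 genes) and long non-coding RNAs one of 40.1% (317 genes).

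Established targets of p53, taken from 9 lists, are set here beside the other raised genes, as a description without a test. The 71 listed targets that were raised had a median retained share of 57.5%, with 24 above 80%, and 47 were lower in p53 TM (66.2%). Over the other 1844 raised genes the median was 32.1%, with 70 above 80%, and 1541 were lower (83.6%). Among genes with a wild type mean of at least 10 CPM the medians were 65.7% for 59 listed targets and 38.7% for 638 others. Some members are examples that the study picked from this series. It names *CDKN1A*, *PLK2*, *PRDM1*, *ADGRG1*, *ATF3*, *BMP7*, *CAV1* and *VDR* as repressed by TM at 24 h. *FAS*, *SESN1*, *TP53I3* and *XPC* it names as repressed only at 6 h. The order of the lists is therefore not independent of the study's own results. The lists differed among themselves, as follows, and their counts of lower genes stand beside the 22.1% of all genes tested that were lower.

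**Figure D2:**
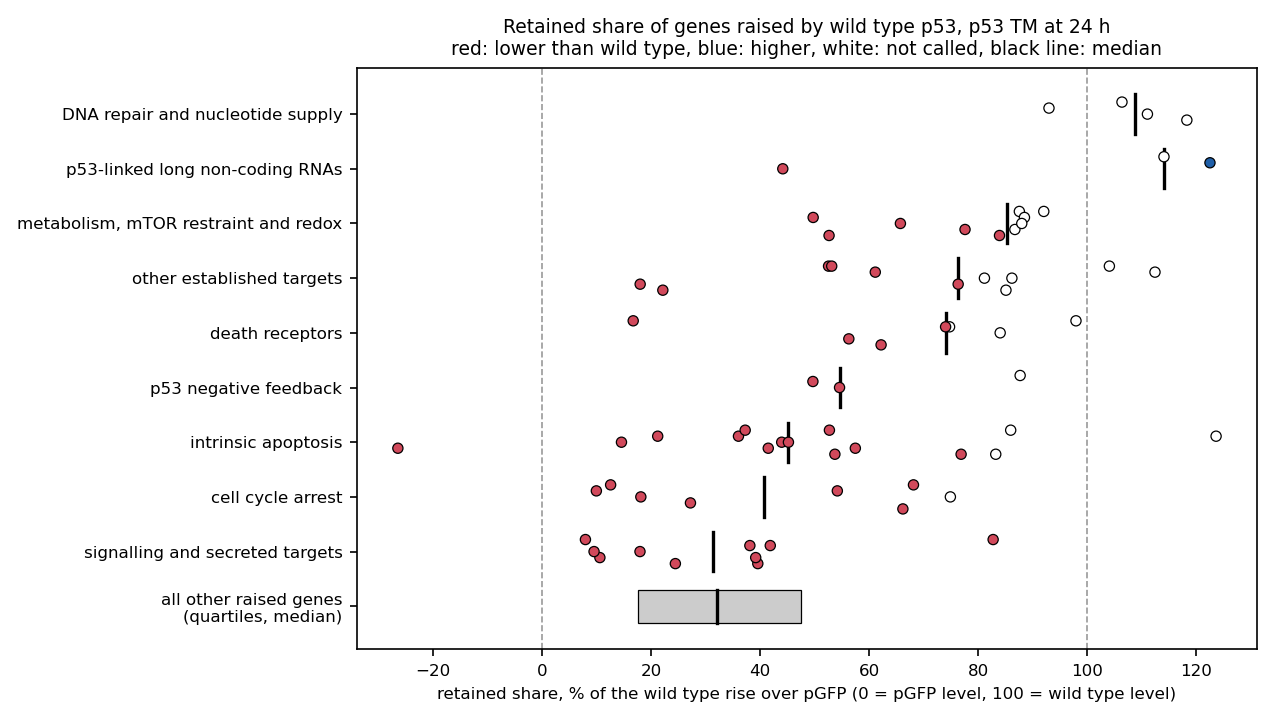
Retained share in p53 TM (horizontal axis, percent of the wild type rise over pGFP) of the raised genes of 9 target lists, 1 point a gene and a black line for the median, with quartiles and median of the other raised genes at the bottom. The 4 genes of DNA repair and nucleotide supply lie between 93.0% and 118%, while the 10 signalling and secreted targets have a median of 31.3%.

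Genes of DNA repair and nucleotide supply kept their rise. *DDB2*, which recognises ultraviolet damage in chromatin, stood at 101.6, 97.7 and 74.4 CPM with wild type p53, at 101.8, 98.4 and 86.7 CPM in p53 TM and at 21.2, 23.5 and 22.5 CPM in pGFP. The p53 TM libraries overlapped with those of wild type p53 and lay far above pGFP. Between p53 TM and wild type the log2 fold change was 0.07 (95% interval −0.08 to 0.23, adjusted P = 0.467). *XPC*, which starts nucleotide excision repair, retained 118% (log2 fold change 0.13, interval 0.02 to 0.25, adjusted P = 0.0637). *RRM2B*, a subunit of the p53-inducible ribonucleotide reductase, retained 111%, with a log2 fold change of 0.10 (interval −0.08 to 0.27). *POLH*, the translesion polymerase eta, retained 93.0%, with a log2 fold change of −0.08 (interval −0.22 to 0.05). None of these 4 raised genes was lower in p53 TM by edgeR at an adjusted or an unadjusted P below 0.05, nor by DESeq2, while *XPC* had an unadjusted P of 0.0261 in the opposite direction and was called higher in 5 alternatives, 1 of them a fit of only the groups compared (adjusted P = 0.031). Of the 10 genes of the list 2 were lower, neither of them among the 4, a share near the 22.1% of all genes. *PCNA*, the sliding clamp of replication, fell by 0.23 on the log2 scale and *GADD45B*, a stress-induced growth regulator, fell by 0.37, and neither call held without the replicate block.

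The feedback on p53 was kept in part. *MDM2*, the ubiquitin ligase that removes p53, stood at 1972, 1826 and 1290 CPM with wild type p53 and at 1829, 1588 and 1115 CPM in p53 TM, against 192, 199 and 184 CPM in pGFP. It was lower in p53 TM in every pair, the groups overlapped, and it retained 87.7% (log2 fold change −0.17, interval −0.37 to 0.02, adjusted P = 0.159). *MDM2* was called lower without p53 TM replicate 1 (adjusted P = 0.0412), in a fit of only the groups compared (0.0247) and with every gene of at least 1 count (0.00767). Of the list of 9 feedback genes 3 were lower, or 2 without the block, while 22.1% of all genes were lower with it. *RBM38*, an RNA-binding protein that restrains p53 translation, retained 49.7% (log2 fold change −0.58, SE 0.09, adjusted P = 4.11e-05). *PPM1D*, a phosphatase that switches off the DNA damage response, differed from wild type by −0.03 on the log2 scale and was not called.

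Among the genes of cell cycle arrest 7 of 12 were lower, with and without the block, and the 8 raised members retained a median of 40.7%. *CDKN1A*, which encodes the inhibitor p21, stood at 585.5, 848 and 534 CPM with wild type p53, at 386, 444 and 306 CPM in p53 TM and at 48.4, 53.9 and 53.2 CPM in pGFP. All p53 TM libraries lay below all wild type libraries and several times above pGFP. It retained 54.2% (log2 fold change −0.78, SE 0.10, adjusted P = 9.18e-06). *RPRM*, an inducer of arrest in G2, was reduced much further: 18.7, 15.4 and 13.4 CPM with wild type p53, 5.07, 3.68 and 3.46 CPM in p53 TM, and 3.54, 2.38 and 2.38 CPM in pGFP. Its p53 TM libraries lay clear of wild type and overlapped with pGFP, from which the group still differed (adjusted P = 0.0033), with a retained share of 9.95% and a log2 fold change of −1.96 (SE 0.10, adjusted P = 2.85e-09). With p53 O6-meG *RPRM* retained 58.5%, and it was 1 of the genes called lower there than with wild type p53 (adjusted P = 0.0106). Between these stood *PLK2*, a kinase of the centrosome cycle, with 27.2%, the 14-3-3 protein gene *SFN* with 18.1% and the transcriptional repressor *PRDM1* with 12.6%. *BTG2*, an antiproliferative cofactor, retained 68.1%, and *GADD45A*, a stress sensor, retained 74.9% and was not called (log2 fold change −0.32, adjusted P = 0.139). The p53 TM libraries of *GADD45A* nevertheless all lay below those of wild type, and it was called lower in 4 alternatives, 1 of them without p53 TM replicate 1 (log2 fold change −0.48, adjusted P = 0.0483) and 1 a fit of only the groups compared (adjusted P = 0.000971).

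Of the 15 genes of intrinsic apoptosis, all raised, 12 were lower in p53 TM, or 10 without the block, and the median retained share was 45.2%. *BBC3*, which encodes the death inducer PUMA, stood at 17.9, 22.3 and 14.6 CPM with wild type p53 and at 11.8, 11.4 and 8.67 CPM in p53 TM, against 1.79, 2.02 and 2.60 CPM in pGFP. The groups did not overlap, and it retained 52.7% (log2 fold change −0.78, SE 0.13, adjusted P = 0.000187). *BID*, which links death receptors to mitochondria, retained 21.2% (log2 fold change −0.88, SE 0.09, adjusted P = 1.53e-06), and *APAF1*, the core of the apoptosome, retained 43.9%. *PERP*, a membrane protein of desmosomes and apoptosis, retained 37.3%. Not called were *BAX*, the pore former of the outer mitochondrial membrane (83.2% retained, adjusted P = 0.103), *AEN*, an exonuclease of apoptosis (85.9%, adjusted P = 0.205), and *PHLDA3*, an inhibitor of AKT (124%, adjusted P = 0.127). The p53 TM libraries of *AEN* all lay below those of wild type, and it was called lower in a fit of only the groups compared (adjusted P = 0.0191) and without replicate 1 of all groups (0.0162). *PHLDA3* was called higher in 3 alternatives: with every gene of at least 1 count (adjusted P = 0.0286), without wild type replicate 3 and without replicate 3 of all groups. *BAX* was called lower without p53 TM replicate 1 (adjusted P = 0.0466), without replicate 1 of all groups and in a fit of only the groups compared. In a fit of all 30 libraries without the block, which takes in 2 libraries at 6 h with conflicting titles, *CDKN1A* (adjusted P = 0.214), *BTG2*, *BBC3* and *APAF1* were not called.

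Genes of death receptors were split in the same way. *TNFRSF10B*, which encodes the TRAIL receptor DR5, stood at 261.7, 277 and 218 CPM with wild type p53 and at 274, 251 and 219 CPM in p53 TM, against 53.7, 67.5 and 65.3 CPM in pGFP. It retained 97.9%, the p53 TM and wild type libraries overlapped, and the log2 fold change was −0.02 (interval −0.21 to 0.17). *FAS*, the receptor of FAS ligand, retained 84.0% (adjusted P = 0.176) and was called lower in 4 alternatives, among them without p53 TM replicate 1 (adjusted P = 0.0462). *FAS* and *ACTA2* overlap on opposite strands and the strand setting of the counting was not given, so their counts are uncertain. *TNFRSF10A*, the other TRAIL receptor with a death domain, retained 62.2% and was lower (adjusted P = 0.00439), but not without replicate 2 of all groups. *CASP10*, an initiator caspase, retained 16.7%, with a log2 fold change of −1.38 (SE 0.25, adjusted P = 0.000338). In all 4 of the 9 genes were lower, or 2 without the block.

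Targets of metabolism, mTOR restraint and redox balance kept a median of 85.3% over 10 raised genes, of which 5 were lower with the block, and none of these calls held without it. *SESN1* and *SESN2*, sestrins that restrain mTORC1, retained 88.5% and 88.0%. *FDXR*, the ferredoxin reductase of mitochondria, stood at 287.8, 287 and 213 CPM with wild type p53 and at 307, 216 and 167.5 CPM in p53 TM. It was lower in p53 TM in replicates 2 and 3 and higher in replicate 1, and was not called (86.7% retained, log2 fold change −0.21, adjusted P = 0.186). *FDXR* was called lower without p53 TM replicate 1 (log2 fold change −0.38, adjusted P = 0.0177), without replicate 1 of all groups (adjusted P = 0.000364) and with every gene of at least 1 count. *SESN1* was called lower in 4 alternatives, 1 of them without p53 TM replicate 1 (adjusted P = 0.0323). *GLS2*, the liver-type glutaminase, retained 52.6% (log2 fold change −0.93, adjusted P = 4.82e-06, and 0.069 without the block).

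Signalling and secreted targets had the lowest median of the 9 lists: all 14 genes were lower in p53 TM, 10 without the block, and the 10 raised ones retained a median of 31.3%. Of the 14, 12 were higher with wild type p53 than in pGFP (adjusted P below 0.05), and *THBS1* was not. *CAV1*, the coat protein of caveolae, stood at 468.6, 486 and 413 CPM with wild type p53, at 235, 235 and 242.5 CPM in p53 TM and at 160.5, 232 and 242 CPM in pGFP. The p53 TM libraries lay well below wild type and, in replicates 2 and 3, next to pGFP (10.6% retained, log2 fold change −0.94, SE 0.11, adjusted P = 5.28e-06). *ADGRG1*, an adhesion receptor, stood at 7.16, 7.99 and 3.63 CPM with wild type p53 and at 1.58, 1.24 and 0.846 CPM in p53 TM, which retained 7.9% (log2 fold change −2.35, SE 0.19, adjusted P = 1.65e-07). *BMP7*, a morphogen of the TGF-beta family, retained 17.95% and the vitamin D receptor gene *VDR* 24.4%. *GDF15*, a stress cytokine, was the exception in size, with 82.7% retained and a log2 fold change of −0.27 (adjusted P = 0.0213, and 0.34 without the block).

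Of 11 other established targets, all raised, 6 were lower in p53 TM, or 3 without the block, with a median of 76.3%. *ZMAT3*, an RNA-binding growth inhibitor, retained 104% and *RPS27L*, a ribosomal protein, 112%, and neither was called. *PML*, the scaffold of nuclear bodies, retained 53.1% (log2 fold change −0.50, adjusted P = 0.000158, not called without the block). *CLCA2*, a cell surface protein, retained 18% (log2 fold change −2.44, adjusted P = 5.72e-07).

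**Figure D3:**
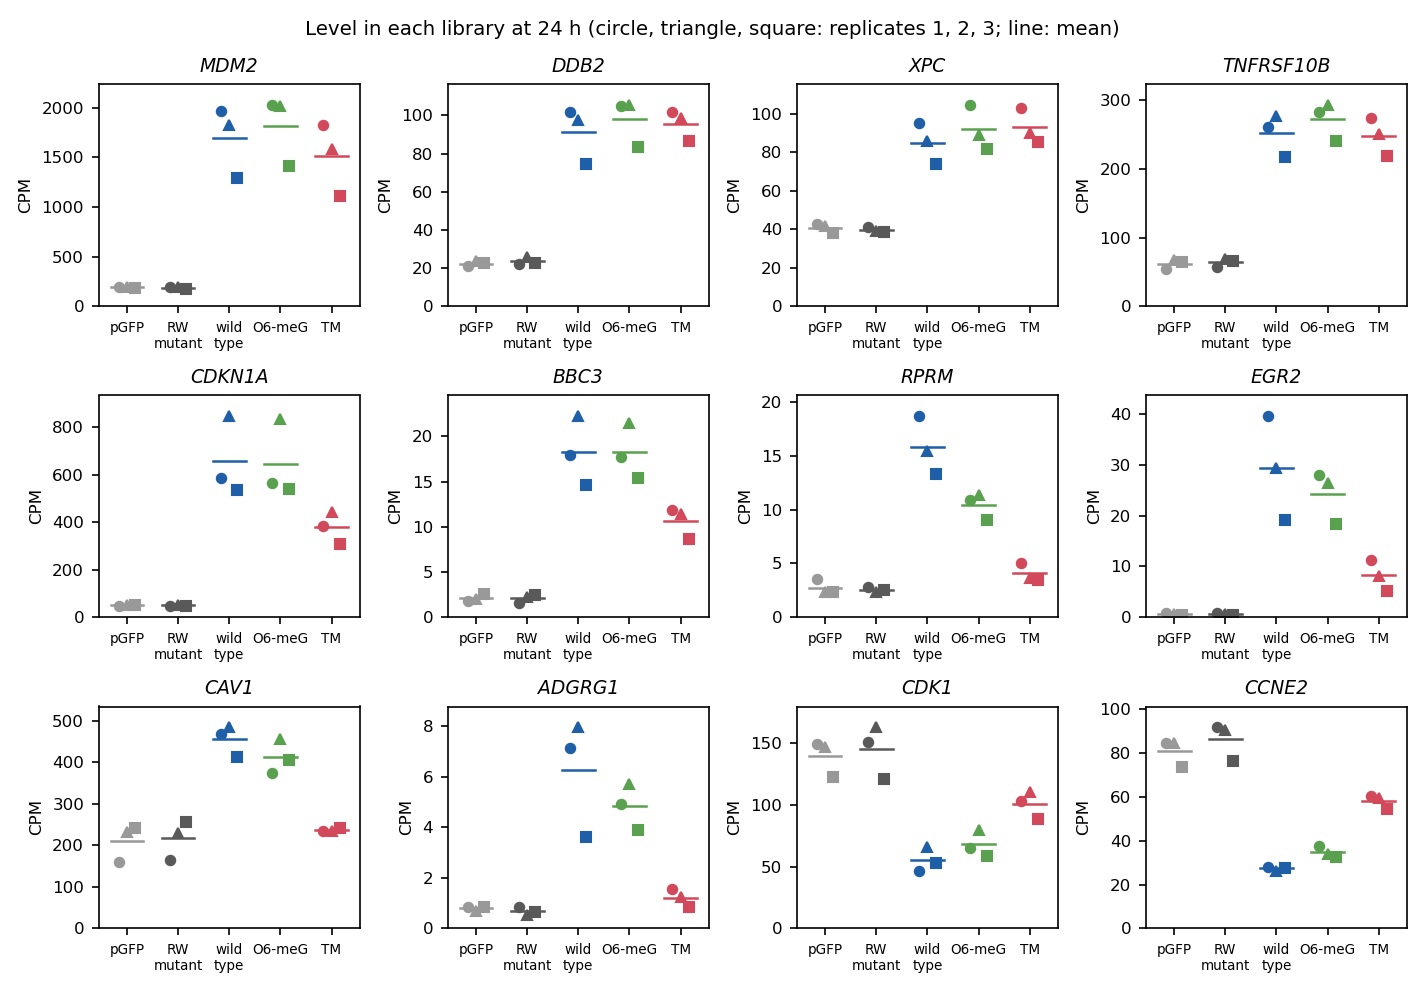
CPM of 12 genes (vertical axes, from 0) in each library of the 5 groups at 24 h (horizontal axis), with replicates 1, 2 and 3 as circle, triangle and square and a line at the group mean. In the top panels p53 TM and wild type p53 overlap, in those of *RPRM* (mean 4.07 against 15.8 CPM) and *ADGRG1* p53 TM lies close to pGFP, and *CDK1* and *CCNE2* lie between wild type and pGFP.

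By the rule for effects kept, the 8 genes with the largest rise among those whose interval for p53 TM against wild type lay within 0.5 of zero on the log2 scale were *MIR34AHG*, *LNCTAM34A*, *GDF15*, *ACTA2*, *FDXR*, *MFSD4A*, *MDM2* and *INKA2*. Such an interval was found for 90 of the 1343 raised genes with separate libraries and at least 1 CPM. *MIR34AHG*, the host transcript of the growth-restraining microRNA miR-34a (ENSG00000228526.6, chromosome 1, 9148011 to 9198906, minus strand), stood at 31.4, 20.6 and 17.2 CPM with wild type p53 and at 38.7, 24.0 and 22.0 CPM in p53 TM, against 0.489, 0.219 and 0.173 CPM in pGFP. It was higher than wild type in each pair, although the groups overlapped, and was 1 of the 2 raised genes called higher (log2 fold change 0.29, SE 0.09, adjusted P = 0.0115, and 0.612 without the block), a call that DESeq2 did not make. *LNCTAM34A*, transcribed from the other strand of the same region, retained 114% (log2 fold change 0.18, interval −0.14 to 0.49). The 2 genes overlap, so reads may have been shared between them. Of the 5 long non-coding RNAs tested from the list of p53-linked ones 1 was higher and 1 lower, *PVT1* (44.1% retained). The 250 bases before the start of *LNCTAM34A* are shown because the p53 site in capitals matches the consensus in full.

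LNCTAM34A, chr1:9181954-9182203, plus strand: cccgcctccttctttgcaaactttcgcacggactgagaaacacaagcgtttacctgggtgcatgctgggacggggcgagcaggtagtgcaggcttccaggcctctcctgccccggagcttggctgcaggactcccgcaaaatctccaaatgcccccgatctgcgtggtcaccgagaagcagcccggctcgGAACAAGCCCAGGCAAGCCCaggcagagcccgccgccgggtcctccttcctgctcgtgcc

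A p53 site was present in a window of 6 of 52 raised genes that retained over 80% (11.5%) and of 1 of 333 that retained under 20% (0.3%), against 0.7% of all genes with a window. It was present for 7 of 118 raised genes not called in p53 TM (5.9%) and for 14 of 1014 that were lower (1.4%). Of all 35116 windows 0.5% held a site. The windows reach only a short way from the start, and these counts carry no test.

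The opposite end held genes whose p53 TM level was at or under that of pGFP. Among the raised genes that were lower in p53 TM, had all wild type libraries above all pGFP libraries and reached a wild type mean of 1 CPM, the 8 with the lowest retained share were *SHH*, *ERG*, *SH3TC1*, *MYT1*, *FAM20C*, *ASIC4*, *PEAR1* and *RASD2*, with shares from −26.5% to −12.1%. These are low genes: the highest value in any library was 6.11 CPM, for *MYT1*. The same wild type libraries pick these genes and enter both the share and the call, so their rank is a description. By p53 O6-meG against RW mutant p53, only *SH3TC1* and *RASD2* were raised by at least 2-fold, and *SHH*, *MYT1* and *PEAR1* by less. *ERG*, *FAM20C* and *ASIC4* were not called there (adjusted P = 0.171, 0.074 and 0.256). *MYT1*, a zinc finger factor of neural differentiation, stood at 5.68, 6.11 and 3.75 CPM with wild type p53, at 2.15, 1.36 and 1.27 CPM in p53 TM and at 2.59, 1.95 and 1.78 CPM in pGFP. Its p53 TM libraries lay below those of wild type and below pGFP in each pair (log2 fold change −1.70, SE 0.17, adjusted P = 1.36e-06), while the difference from pGFP was not called (adjusted P = 0.158). *SHH*, the Sonic hedgehog morphogen, stood at 1.48, 2.59 and 1.85 CPM with wild type p53 and at 0.446, 0.633 and 0.769 CPM in p53 TM, with a log2 fold change of −1.67 (SE 0.19, adjusted P = 3.49e-06). *RASD2*, a small GTPase, had a log2 fold change of −3.06 (SE 0.29, adjusted P = 5.51e-07).

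The raised genes with the smallest P in p53 TM against wild type were *EGR2*, *RPRM*, *SIRPA* and the non-coding *FLJ36000*. *EGR2*, an immediate early transcription factor, stood at 39.6, 29.4 and 19.1 CPM with wild type p53 and at 11.3, 8.16 and 5.17 CPM in p53 TM, against 0.921, 0.657 and 0.397 CPM in pGFP. It was well below wild type and well above pGFP in each pair, with 26.3% retained. *SIRPA*, the receptor for the signal CD47, retained 7.4% in p53 TM and 38.9% with p53 O6-meG, where it was also called lower than wild type (adjusted P = 0.00161). Of all genes, 67 were lower and 7 higher in p53 O6-meG than in wild type p53 (0.333% and 0.0348%), and 44 of the 67 were raised genes.

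On the falling side, the cell cycle lists held calls in both directions, beside 16.6% higher and 22.1% lower over all genes tested. Wild type p53 lowered only 2 of the 22 genes of G1/S and 6 of the 23 of G2/M by at least 2-fold. Every one of these was higher in p53 TM, beside 53.2% of all lowered genes, so the lower calls were of genes that fell less or not at all. Of 22 genes of G1/S and replication 10 were higher in p53 TM and 2 lower (5 higher without the block, where neither of the 2 lower calls held). Of 23 genes of G2/M and mitosis 12 were higher and 3 lower, or 9 higher without the block, where none of the 3 held. *CDK1*, the kinase that drives mitosis, stood at 46.5, 66.3 and 52.8 CPM with wild type p53, at 103, 110 and 89.0 CPM in p53 TM and at 149.6, 147 and 123 CPM in pGFP. The p53 TM libraries lay between the other groups and overlapped with neither, and 46.0% of the fall was retained (log2 fold change 0.87, SE 0.08, adjusted P = 3.78e-07). *CCNE2*, a cyclin of S phase entry, was at 27.97, 26.3 and 27.7 CPM with wild type p53 and at 60.5, 59.7 and 54.4 CPM in p53 TM (log2 fold change 1.09, SE 0.06, adjusted P = 2.85e-09). *NCAPH*, of condensin, *TTK*, of the spindle checkpoint, *ESCO2*, of sister chromatid cohesion, *KIF18A*, a mitotic kinesin, and *FBXO5*, an inhibitor of the anaphase-promoting complex, retained between 47.3% and 59.7% of their fall.

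Other genes of the same lists did not follow. *CCNB1*, a partner of CDK1, differed from wild type by 0.01 on the log2 scale in p53 TM (adjusted P = 0.897) and *AURKA*, a mitotic kinase, had an interval of −0.21 to 0.21. *CDC20*, an activator of the anaphase-promoting complex, stood at 251, 277 and 338.5 CPM with wild type p53, at 177, 218 and 249.3 CPM in p53 TM and at 229, 275 and 305 CPM in pGFP. It was lower in p53 TM than in both other groups (log2 fold change against wild type −0.43, SE 0.05, adjusted P = 1.79e-06, and 0.102 without the block).

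**Figure D4:**
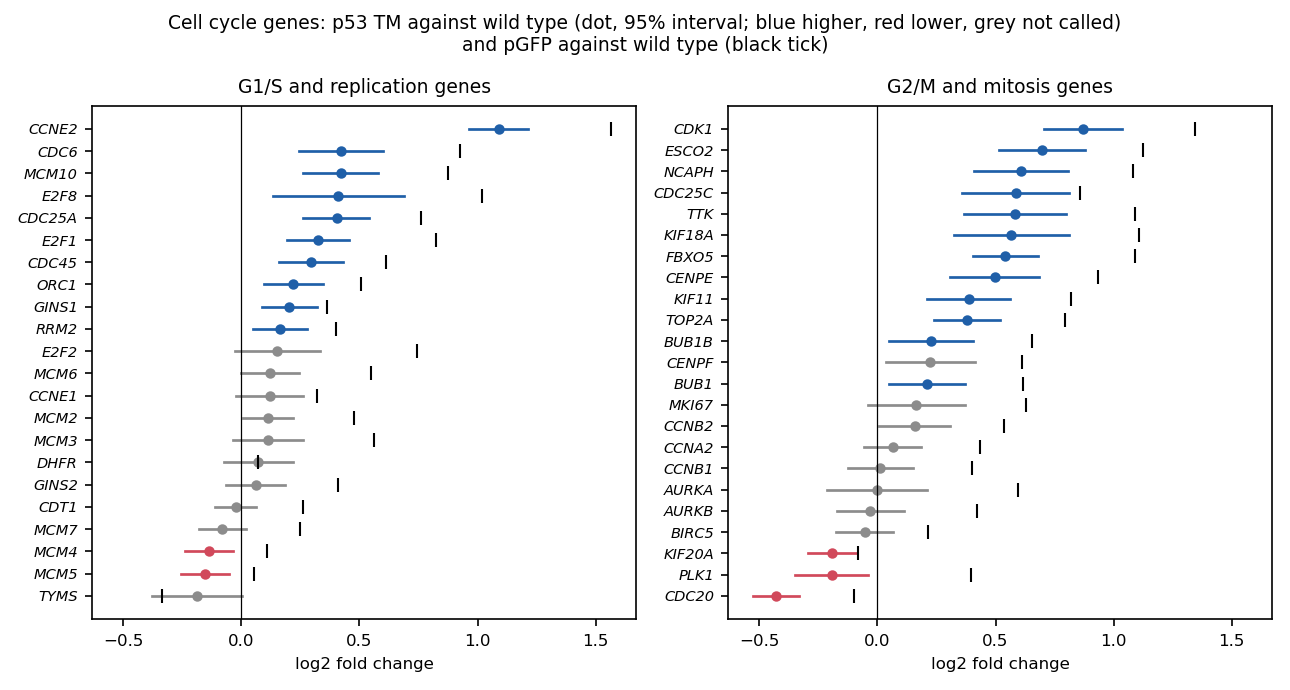
Log2 ratio of p53 TM to wild type p53 with its 95% interval (dots and bars) for the genes of the 2 cell cycle lists, with that of pGFP against wild type as black ticks. *CCNE2* (1.09) and *CDK1* (0.87) stand at the top, short of their ticks, while *CDC20* (−0.43) lies on the other side of 0.

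All 16 falling genes that the study names were higher in p53 TM, 14 of them without the block, but the study chose them on these samples. In contrast to *CDK1*, where 46.0% of the fall remained, *SESN3*, a further sestrin, was at 24.0, 20.7 and 16.4 CPM in pGFP, at 10.2, 9.56 and 8.24 CPM with wild type p53 and at 21.4, 21.1 and 18.5 CPM in p53 TM. Its p53 TM libraries lay in the range of pGFP and above wild type in each pair, with 0.3% of the fall retained (log2 fold change 1.13, SE 0.10, adjusted P = 2.36e-07). By the rule for falls lost most, *SESN3* followed *ABAT*, *SUMO1P1*, *CELF5*, *TMEM44-AS2* and *FNDC1*. Of these genes only *FNDC1* was lowered by at least 2-fold in p53 O6-meG against RW mutant p53. *ABAT* was not called there (adjusted P = 0.31), and the others fell by less than 2-fold. No lowered gene met the rule for falls kept, that is an interval within 0.5 of zero. An interval can fail this rule by its width alone, so the rule does not show that no fall was kept. Of the 498 lowered genes 52 had a retained share above 80%, and 233 were not called in p53 TM against wild type.

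The CHR element (TTTGAA) and the E2F element (TTTGGCGC, TTTCCCGC, TTTGGCGG or TTTCGCGC) were searched on both strands of the same windows, of which 15.2% and 3.4% held one. A CHR element was present for 40 of 172 lowered genes that were higher in p53 TM (23.3%) and for 14 of 99 that were not called (14.1%), against 13.7% of all genes with a window. An E2F element was present for 14 of the 172 (8.1%) and 5 of the 99 (5.1%), against 6.5%. The 250 bases before a RefSeq start of *CDK1* hold 1 E2F element and 2 CHR elements, in capitals.

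CDK1, chr10:60778228-60778477, plus strand: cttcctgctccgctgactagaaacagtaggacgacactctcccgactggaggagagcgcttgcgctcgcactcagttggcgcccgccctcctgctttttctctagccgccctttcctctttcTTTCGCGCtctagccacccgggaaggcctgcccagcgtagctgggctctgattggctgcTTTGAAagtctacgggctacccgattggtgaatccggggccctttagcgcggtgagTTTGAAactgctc

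Some genes differed in p53 TM without a detected effect of wild type p53, and others lay beyond both wild type p53 and pGFP. Among 8829 genes with an unadjusted P above 0.05 for wild type p53 against pGFP, 551 were lower (6.2%) and 387 higher (4.4%) in p53 TM than with wild type p53, below the 22.1% and 16.6% of all genes. Below both wild type p53 and pGFP were 311 genes, and above both 152. *CYP1B1*, a cytochrome P450 under the aryl hydrocarbon receptor, stood at 12.0, 12.4 and 12.0 CPM in p53 TM, at 19.4, 22.5 and 23.1 CPM with wild type p53 and at 15.3, 20.6 and 18.2 CPM in pGFP. All p53 TM libraries lay below all libraries of both groups (log2 fold change against wild type −0.83, SE 0.08, adjusted P = 5.20e-07, and −0.57 against pGFP, adjusted P = 4.23e-05). *AHRR*, a repressor of the same receptor, was also lower than wild type (log2 fold change −0.65, adjusted P = 0.000145), whereas *CYP1A1*, its best known target, had means of 0.705 CPM in p53 TM and 0.922 CPM with wild type p53 and was not called. Of the 7 genes of that receptor 3 were lower, also without the block, against the 22.1% of all genes with it. With wild type p53, 5 of the 7 were higher and 2 lower than in pGFP (adjusted P below 0.05, without a fold limit). These genes are therefore not outside the p53 effect.

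By P among genes outside the p53 effect, *SAPCD2*, *THBS1*, *TMEM156* and *PLPP2* led those lower in p53 TM and *CREBRF*, *CHMP1B*, *LINC02972* and *NCOA1* those higher. *THBS1* is also 1 of the 14 signalling and secreted targets, but wild type p53 did not raise it here (log2 fold change against pGFP −0.06, unadjusted P = 0.37). *CREBRF*, a regulator of the unfolded protein response and of energy storage, stood at 68.5, 54.4 and 44.9 CPM with wild type p53, at 105, 76.9 and 71.1 CPM in p53 TM and at 74.1, 56.0 and 53.2 CPM in pGFP. It was highest in p53 TM in every replicate number (log2 fold change 0.59, SE 0.07, adjusted P = 3.62e-06). With p53 O6-meG, without the inhibitor, *CREBRF* was also called higher than with wild type p53 (log2 fold change 0.34, adjusted P = 0.0356). Without the block *CREBRF* (adjusted P = 0.0773) and the 4 lower genes were not called. Of 9 genes of interferon and nucleic acid sensing, 7 were higher with wild type p53 than in pGFP (adjusted P below 0.05), so this list is not outside the p53 effect. In p53 TM 6 of the 9 were lower than with wild type p53, or 1 without the block, against the 22.1% of all genes that were lower with it. The call that held was that of *IFIH1*, a sensor of double-stranded RNA, with 22.8% of its rise retained (log2 fold change −0.81, SE 0.09, adjusted P = 3.16e-06). Of 9 genes of the ATF4 stress response 2 were lower and 2 higher, shares near those of all genes (22.1% and 16.6%), and without the block 1 lower call held and neither higher call did. *MGMT*, the gene of AGT, differed from wild type by −0.20 on the log2 scale and was not called (adjusted P = 0.0728). The exceptions were the fits without wild type replicate 3 and without replicate 3 of all groups (0.0428 in both). Of the 8 genes of alkylation and mismatch repair 5 were lower, or 2 without the block, against the 22.1% of all genes that were lower with it.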

How the data were processed

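The authors aligned single reads of rRNA-depleted libraries to hg38 with STAR 2.5.3a, counted them on GENCODE v27 genes with featureCounts (Subread 1.5.2) and deposited raw, unnormalized counts of 39359 genes. Whether reads were counted by strand is not given in the sources used here. A deposited table of normalized values was not used. Coordinates come from GENCODE v44 of the same build, matched for 38904 genes.

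For the 15 libraries at 24 h, edgeR 4.0.16 was run in R 4.3.3: filterByExpr with the groups, TMM, and the quasi-likelihood test with the replicate number as a block, with Benjamini-Hochberg adjustment over 20124 genes. DESeq2 1.42.0 served as an alternative. TM against wild type was called at an adjusted P below 0.05, without a fold limit. Scripts were tested on simulated data. The block was used because the comparison is paired by replicate number and all 30 pairs of same-numbered libraries of different groups had correlated residuals (0.411 to 0.859, against a median of −0.47 for different numbers). No library duplicated another. The 15 libraries at 6 h, 2 of which have conflicting titles, entered alternatives only.

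The retained share is a ratio of differences of mean CPM and carries no test. Genes were named by rules: members of 19 fixed lists, the lowest retained shares among raised genes that were lower and the largest rises with an interval within 0.5, both among genes with separate wild type and pGFP libraries and at least 1 CPM, the mirror of both for lowered genes, and the smallest P values inside and outside the p53 effect. *METTL8*, *DOCK8* and *ANKRD65* were chosen after their values were seen, as were the promoter motifs and their mismatches. The comparison, rules and lists were chosen with earlier results of these data known. Intervals cover the spread between these replicates. Some items of the lists are not reported here.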

Additional observations from a re-analysis of the deposited data

How the results depend on the processing

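Direction was compared for the 233 genes listed or named only. None of them that was called in p53 TM against wild type changed direction in any alternative run, but the order of the retained medians did change. Without the replicate block, 61 of the 233 genes listed or named lost their call, and the genes lower and higher in p53 TM numbered 1893 and 1269, the raised genes that were lower 1047 and the lowered genes that were higher 142. All 30 libraries without the block gave 2093, 1767, 1045 and 171, and 28 libraries without the conflicting titles gave 2539 lower and 1981 higher. A 2-fold limit left 962 lower and 118 higher genes. At least 10 counts in every library left 1181 raised and 207 lowered genes, and no fold limit gave 5359 and 4966. Lowered genes defined by p53 O6-meG against RW mutant p53 included 156 that were higher in p53 TM. On the log2 scale the retained medians were 49.9% for raised and 41.2% for lowered genes, the opposite order from mean CPM (32.7% and 52.2%). DESeq2 gave 4045 lower and 3140 higher genes, DESeq2's size factors in edgeR 4390 and 3400.

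With libraries left out in turn, the lower genes ranged from 2599 (without replicate 2 of all groups) to 4589, the higher from 1508 (same omission) to 3719, the raised from 1729 to 2113, the lowered from 317 (without replicate 1 of all groups) to 636, the raised that were lower from 1218 to 1722, and the lowered that were higher from 156 (same omission; 174 without wild type replicate 1) to 301. The retained median ranged from 20.3% (without p53 TM replicate 1) to 38.2% for raised genes and from 44.2% (without pGFP replicate 1) to 56.9% for lowered genes. These extremes come from omissions of 1 library, which break the pairing by replicate number. The causes were not tested. With 3 replicates and low counts, retained shares of genes near 1 CPM are imprecise.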
